A study of Homo sapiens with 8 samples.

Results

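The semaphorin, plexin, neuropilin, ephrin and Eph receptor genes were examined in U2OS cells after silencing of CDK9, the kinase of the elongation factor P-TEFb that releases paused RNA polymerase II. Members were chosen by gene symbol among probe sets annotated with 1 gene, and 54 probe sets of 51 genes were found among 18417 genes tested. For the 3 genes with more than 1 probe set, the one brightest on average across the 8 arrays was used. The set was chosen with the fall of SEMA3A already known, so the values of SEMA3A are given as a description, without a test of its difference between the groups. They comprised 7 class 3 semaphorins, 12 semaphorins of classes 4 to 7, 2 neuropilins, 9 plexins, 5 ephrin-A and 3 ephrin-B ligands, 9 EPHA and 4 EPHB receptors.

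U2OS is an established human osteosarcoma line, and the labels list no gene change in it beyond the siRNA. The 4 cultures of the CDK9 siRNA group received siRNA against CDK9, and the 4 cultures of the control group a non-targeting siRNA, each at 10 nM, with collection 72 h after transfection. The series describes the replicates as biological. No source used here gives the sequence or number of the siRNAs, so effects of a single siRNA on other transcripts cannot be told apart from those of CDK9 loss.

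Semaphorins are secreted or membrane-bound cues that steer axons and migrating cells by acting on plexin receptors. Class 3 semaphorins are secreted, and most bind a neuropilin, which has little signalling of its own and pairs with an A-type plexin. Ephrins are held on the cell surface, A-type by a lipid anchor and B-type by a transmembrane segment, and bind Eph receptor tyrosine kinases on neighbouring cells. In mice, Sema3a restrains bone-resorbing osteoclasts, and ephrin-B2 with EphB4 signals between osteoclasts and osteoblasts.

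All values are log2 signals of Affymetrix probe sets, on which 1 unit is a doubling. The first replicate of each group, here called array set 1, read lower overall than replicates 2 to 4, called array set 2, with array medians of 5.80 to 5.85 against 6.99 to 7.04, so the array set was a block in the fit. CDK9 itself was left at 28.4% of its control signal, with a difference of -1.82 ± 0.05 (SE, n = 4 per group). Of the osteoblast lineage markers, RUNX2 and COL1A1 averaged 8.28 and 9.34, while IBSP and ALPL averaged 4.64 and 6.01 and so lay in the lowest 30% of genes (below 6.14, called dim here). Of the 8 lineage markers measured, RUNX2 (-0.60), COL1A1 (-0.51) and MSX2 (-0.56) fell and SPP1 (1.5) rose. These were 37.5% and 12.5% of the 8, beside 7.47% and 6.73% of all genes. The log2 signals of the 8 added up to 59.8 to 60.3 per CDK9 siRNA array of set 2 and 60.4 to 60.6 per control. In such a sum the rise of SPP1 offsets the falls, so it does not measure lineage content. The part of these markers in the results was not tested. All 4 immune markers measured and 4 of 5 endothelial markers were dim. The endothelial marker TEK, itself dim, was higher (0.30, adjusted p = 0.0247, and 0.0232 with arrays paired by number). No immune marker and no other endothelial marker passed. Neuronal markers moved both ways, with GAP43 lower (-0.62, adjusted p = 0.0220, and 0.0517 with arrays paired by number) and MAP2 higher (0.81) among 6 genes. Their log2 signals added up to 42.7 to 43.0 per CDK9 siRNA array of set 2 and 42.8 to 43.3 per control, a sum with the same limit. In RNA from whole cultures, fewer cells that make a transcript and less of it per cell cannot be told apart.

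More members fell than rose. SEMA3A aside, 8 of 50 members were lower in the CDK9 siRNA arrays, among them the ligand SEMA3D, the receptor subunit NRP1 and the receptor EPHA5, and 1 member, the ligand EFNA5, was higher (limma, p adjusted by Benjamini-Hochberg over all genes and under 0.05). These were 16.0% and 2.0% of the 50, beside 7.47% and 6.73% of all genes. The median difference of all 51 members was -0.06, and that of all genes was -0.0016. After SEMA3A the largest differences were those of NRP1 (-0.83), SEMA3D (-0.73) and EPHA5 (-0.63), and the other 6 genes that passed lay between -0.34 and 0.20. The other 41 members did not pass, and 14 of the 51 were dim. In limma without the block, 0 members and 0 of all genes passed, and at an unadjusted p under 0.05 it was 28 genes higher and 23 lower.

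**Figure D1:**
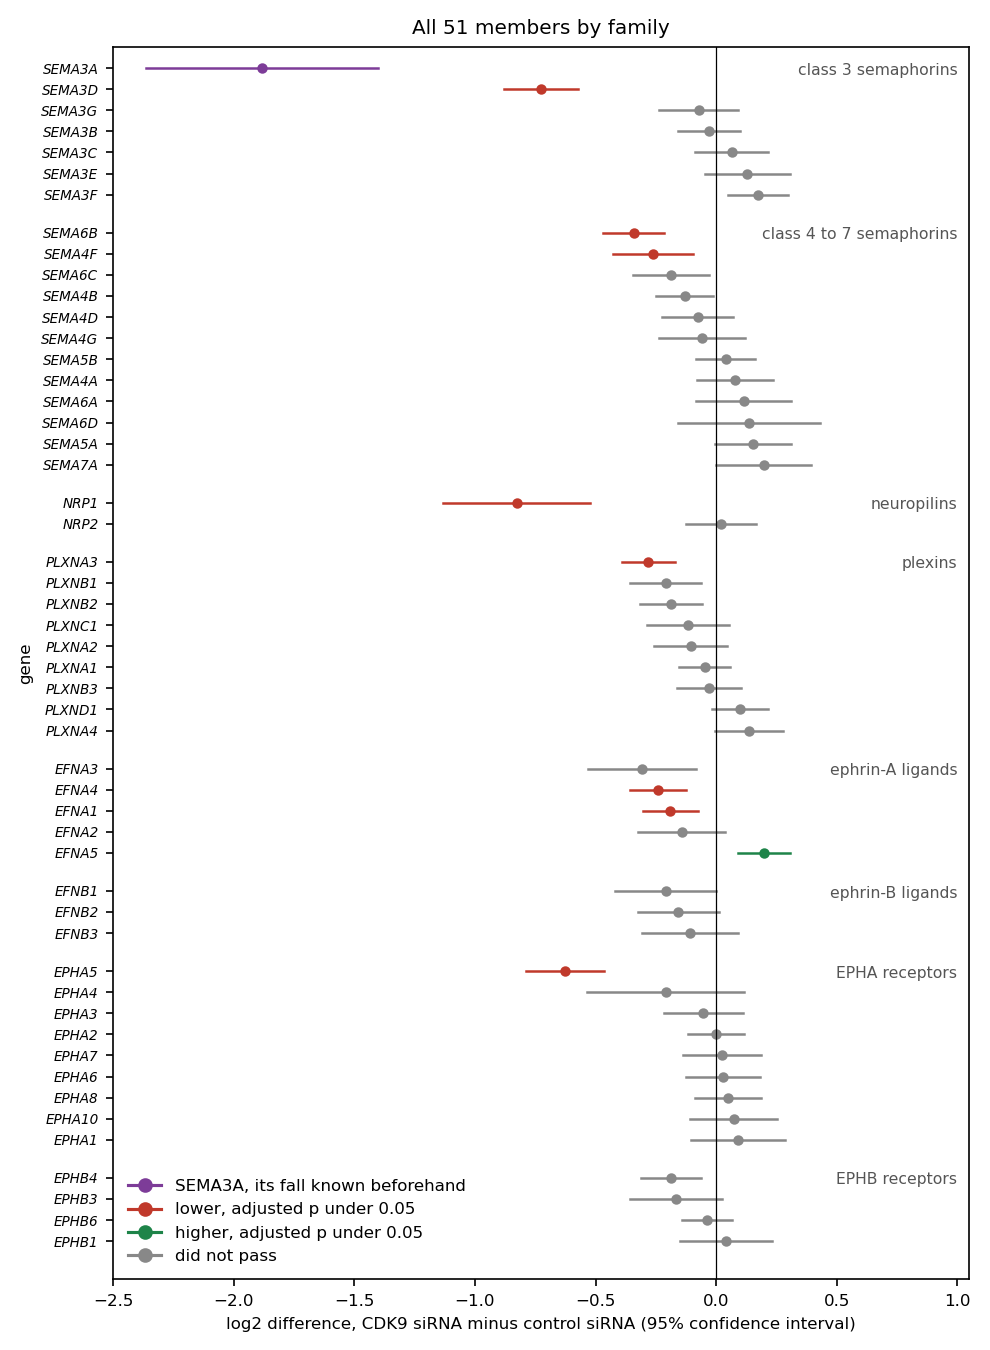
Log2 difference (CDK9 siRNA minus control siRNA, x axis) of each of the 51 genes, in rows by family, with points at the fitted difference and bars for its 95% confidence interval (n = 4 arrays per group). The bar of SEMA3A is not a test, as its fall was known beforehand. SEMA3A, NRP1, SEMA3D and EPHA5 lie furthest left, at -1.88, -0.83, -0.73 and -0.63, and EFNA5 is the gene on the right that passed the test, at 0.20.

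SEMA3A, the secreted ligand of NRP1 and A-type plexins that makes growth cones collapse, read 4.93, 7.0, 6.63 and 7.08 in CDK9 siRNA replicates 1 to 4, against 5.80, 9.15, 9.17 and 9.03 in the controls. Every CDK9 siRNA array was below the control of its number, and the groups did not overlap within array set 2. On the log2 scale the CDK9 siRNA group was lower by a fitted -1.88 ± 0.21 (SE, n = 4 per group, 95% confidence interval -2.36 to -1.40), which leaves 27.1% of the control signal, and no other gene of the 18417 had a lower difference. In array set 2 the mean was 6.90 ± 0.24 in CDK9 siRNA arrays and 9.12 ± 0.08 in controls (SD, n = 3 each). The size was not the same in both array sets, at -0.87 in set 1 and -2.22 in set 2. The 2 sets also differed in how high SEMA3A stood in the control cells: less the array's own median, the control read 0.00 in set 1 and 1.99 to 2.15 in set 2.

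SEMA3D was the second class 3 ligand that fell; in zebrafish it guides axons and neural crest cells. Its signal was 4.10, 5.61, 5.62 and 5.60 in the CDK9 siRNA arrays, against 4.77, 6.32, 6.53 and 6.22 in the controls. The groups were apart by 0.61 within array set 2, and the pair of set 1 went the same way. The difference was -0.73 ± 0.07 (SE, n = 4 per group, adjusted p = 0.000324), a 1.66-fold fall, with -0.67 in set 1 and -0.75 in set 2. SEMA3D was a dim gene.

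The other 5 class 3 members did not pass. SEMA3F, which prefers NRP2, differed by 0.17 (adjusted p = 0.0712), and its CDK9 siRNA arrays were above the controls in both sets. SEMA3E, which binds PLXND1 without a neuropilin, read 6.92, 8.94, 8.88 and 8.92 in the CDK9 siRNA arrays, against 7.12, 8.67, 8.63 and 8.72 in the controls. It was thus lower in set 1 and higher in set 2, with 0.13 over both (adjusted p = 0.332) and 0.24 in set 2 alone (adjusted p = 0.0146). SEMA3C, a ligand of both neuropilins, differed by 0.06 with a 95% confidence interval of -0.09 to 0.22. SEMA3B and SEMA3G differed by -0.03 and -0.07.

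Of the 2 neuropilins, NRP1, a co-receptor of SEMA3A, was the one that passed, and it was lower. NRP1, which also binds vascular endothelial growth factor, read 6.0, 7.86, 7.57 and 7.86 in the CDK9 siRNA arrays, against 6.33, 8.96, 8.75 and 8.55 in the controls. All 4 pairs were lower, and in array set 2 the groups were 0.69 apart. The difference was -0.83 ± 0.14 (SE, n = 4 per group, adjusted p = 0.00453), a 1.77-fold fall, with -0.33 in set 1 and -0.99 in set 2.

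NRP2, its paralogue, did not pass and is a dim gene. The probe set with the higher mean differed by 0.02 (adjusted p = 0.887), with a 95% confidence interval of -0.13 to 0.17. A second NRP2 probe set, also below the dim threshold, differed by -0.30 ± 0.09 (SE, adjusted p = 0.0723 over all 19460 probe sets with 1 symbol). The 2 probe sets disagree, so no direction is given for NRP2.

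Among the plexins, the signalling receptors of the family, 1 of 9 passed (11.1%), beside 14.2% of all genes in either direction. PLXNA3, an A-type plexin that pairs with neuropilins, read 6.34, 7.70, 7.59 and 7.63 in the CDK9 siRNA arrays, against 6.58, 7.95, 7.91 and 7.95 in the controls. All 4 pairs were lower and the groups of array set 2 did not overlap. It fell by 0.28 ± 0.05 (SE, n = 4 per group, adjusted p = 0.00575), or 1.22-fold, with nearly the same size in both sets (-0.25 and -0.29).

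The B-type plexins PLXNB1, the receptor of SEMA4D, and PLXNB2 differed by -0.21 and -0.19 and missed the threshold (adjusted p = 0.0649 and 0.0610). PLXNA1 and PLXNA2, the other A-type partners of neuropilins measured besides PLXNA4, differed by -0.05 and -0.11. PLXNA2 passed in array set 2 alone (-0.19, adjusted p = 0.0316) but was 0.14 higher in set 1. PLXNA4 (0.14), PLXND1 (0.10), PLXNC1 (-0.12) and PLXNB3 (-0.03) did not pass either.

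Of the 12 semaphorins of classes 4 to 7, which are held on the membrane, 2 fell (16.7%) and 0 rose, beside 7.47% and 6.73% of all genes. SEMA6B, a transmembrane ligand of A-type plexins, read 6.95, 8.58, 8.42 and 8.50 in the CDK9 siRNA arrays, against 7.27, 8.82, 8.81 and 8.93 in the controls. The groups did not overlap within set 2, and the difference was -0.34 ± 0.06 (SE, n = 4 per group, adjusted p = 0.00472). SEMA4F, another transmembrane semaphorin, differed by -0.26 ± 0.07 (adjusted p = 0.0445), with -0.05 in set 1 and -0.33 in set 2. With the replicate number as a block SEMA4F did not pass (adjusted p = 0.102), nor when any one of the 6 arrays of set 2 was left out (0.0827 to 0.111).

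The remaining 10 of these classes lay between -0.19 and 0.20. SEMA7A, a lipid-anchored ligand of PLXNC1 and integrins, had the highest difference (0.20, adjusted p = 0.177) and SEMA6C the lowest (-0.19, adjusted p = 0.117). SEMA4B (-0.13), SEMA4D (-0.08) and SEMA4G (-0.06) lay below 0, and SEMA4A (0.08), SEMA5A (0.15), SEMA5B (0.04), SEMA6A (0.11) and SEMA6D (0.14) above it. A second SEMA4D probe set differed by 0.09, opposite in sign to the one used, and neither passed.

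**Figure D2:**
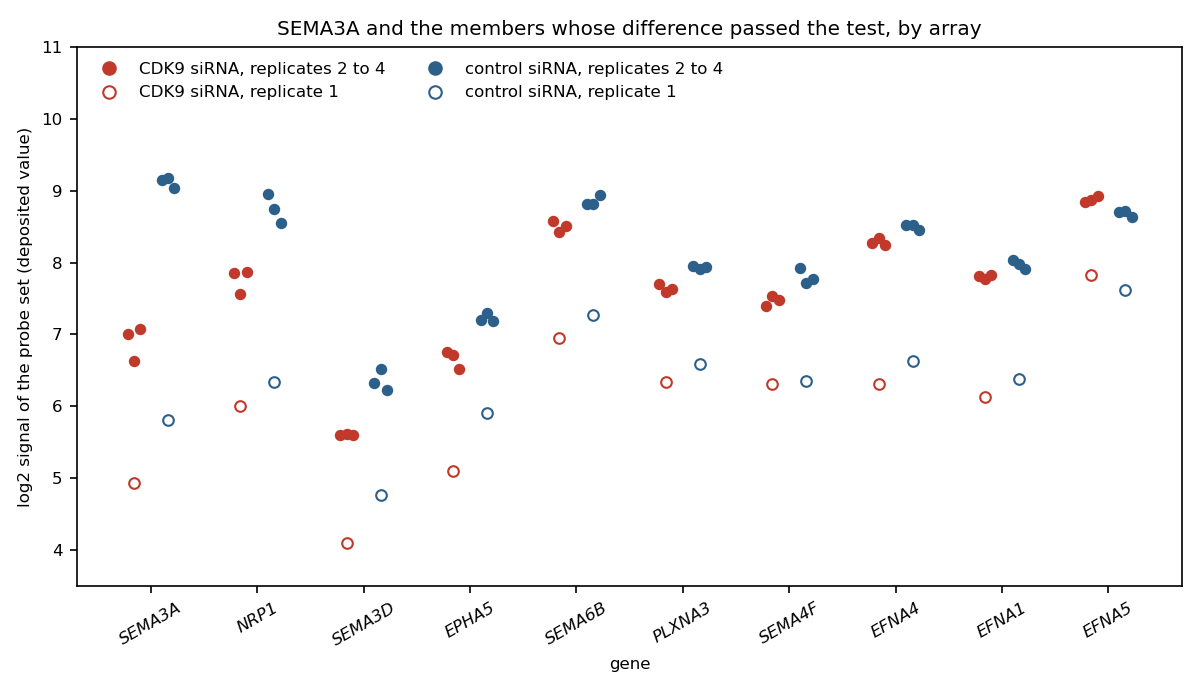
Deposited log2 signal (y axis) of SEMA3A and the 9 members that passed the test (x axis), with 1 point per array, CDK9 siRNA left of control siRNA for each gene, and open points for replicate 1. For SEMA3A the filled CDK9 siRNA points sit between 6.63 and 7.08 and the filled control points between 9.03 and 9.17, and for each gene except EFNA5 every CDK9 siRNA point lies below the control point of its number.

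The ephrin-A ligands moved both ways by small amounts. EFNA4 read 6.31, 8.27, 8.34 and 8.24 in the CDK9 siRNA arrays, against 6.64, 8.52, 8.52 and 8.45 in the controls, a difference of -0.24 ± 0.05 (SE, n = 4 per group, adjusted p = 0.0142). EFNA1, an ephrin induced by inflammatory cytokines in endothelium, differed by -0.19 ± 0.05 (adjusted p = 0.0352). EFNA5 rose by 0.20 ± 0.05 (adjusted p = 0.0245), a 1.15-fold change: it read 7.83, 8.85, 8.88 and 8.93 in the CDK9 siRNA arrays, against 7.61, 8.70, 8.72 and 8.64 in the controls.

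For these 3 ligands all 4 pairs went one way. With the replicate number as a block EFNA1 and EFNA5 did not pass (adjusted p = 0.0849 and 0.0741), which leaves 6 of the 50 members other than SEMA3A lower (12%) and 0 higher, beside 4.75% and 4.41% of all genes in that fit. At an unadjusted p under 0.05 in that fit, 12 of the 50 were lower and 3 higher. The share of all genes at this looser threshold was not counted, so the adjusted shares are not its background. EFNA1 also missed the threshold when any single array except control replicate 4 was left out (0.0559 to 0.106), and EFNA4 without control replicate 3 (0.0523). EFNA5 lost its call when CDK9 siRNA replicate 3 or 4, or any control array of set 2, was left out (0.0601 to 0.0851).

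EFNA3 and EFNA2 depended on the array set. EFNA3 read 6.55, 7.27, 7.58 and 7.60 in the CDK9 siRNA arrays, against 6.53, 7.91, 7.93 and 7.87 in the controls. It was lower in array set 2 (-0.42, adjusted p = 0.0209 in that set alone) and 0.02 higher in set 1, and did not pass over both sets (-0.31, adjusted p = 0.0736). EFNA2 gave -0.25 in set 2 (adjusted p = 0.0146) and 0.19 in set 1, with -0.14 over both (adjusted p = 0.291).

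None of the 3 ephrin-B ligands passed over both sets. EFNB1 read 6.27, 7.33, 7.14 and 7.12 in the CDK9 siRNA arrays, against 6.09, 7.51, 7.56 and 7.52 in the controls. The difference was -0.21 ± 0.09 (SE, n = 4 per group, adjusted p = 0.181), and -0.34 in set 2 alone (adjusted p = 0.0131). EFNB2 (-0.16, dim) and EFNB3 (-0.11) showed the same split: in all 3 genes the CDK9 siRNA arrays of set 2 lay below the controls without overlap, while the pair of set 1 was higher, by 0.17, 0.04 and 0.20.

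EPHA5, a receptor of ephrin-A ligands best known from the brain, was the one Eph receptor that fell. It read 5.10, 6.76, 6.72 and 6.52 in the CDK9 siRNA arrays, against 5.91, 7.21, 7.29 and 7.19 in the controls. All 4 pairs were lower, and in array set 2 the groups were 0.43 apart. The difference was -0.63 ± 0.07 (SE, n = 4 per group, adjusted p = 0.00082), a 1.54-fold fall. Here set 1 had the larger value, -0.81 against -0.57 in set 2.

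The other 8 EPHA receptors did not pass, so 1 of 9 passed (11.1%), beside 14.2% of all genes in either direction. EPHA2, a receptor that is abundant in many tumour lines, read 9.47, 9.93, 9.95 and 9.99 in the CDK9 siRNA arrays, against 9.34, 9.99, 10.01 and 10.00 in the controls. Its difference was -0.0009, with a 95% confidence interval of -0.12 to 0.12. EPHA4, which binds ephrins of both types, differed by -0.21 with a wide interval of -0.53 to 0.12. EPHA1, EPHA3, EPHA6, EPHA7, EPHA8 and EPHA10 lay between -0.05 and 0.09, and EPHA1, EPHA3, EPHA6 and EPHA7 were dim.

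No EPHB receptor passed. EPHB4, the partner of ephrin-B2, came closest, with 7.57, 8.41, 8.58 and 8.47 in the CDK9 siRNA arrays, against 7.77, 8.68, 8.71 and 8.61 in the controls. All 4 pairs were lower, and the difference was -0.19 ± 0.05 (SE, n = 4 per group, adjusted p = 0.0526). Without CDK9 siRNA replicate 3 it passed (adjusted p = 0.0468). EPHB4 did not pass when any other single array was left out (0.0783 to 0.154) or with the replicate number as a block (0.0877). EPHB3 (-0.17), EPHB6 (-0.04), a receptor without kinase activity, and EPHB1 (0.04, dim) lay nearer to 0.

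**Figure D3:**
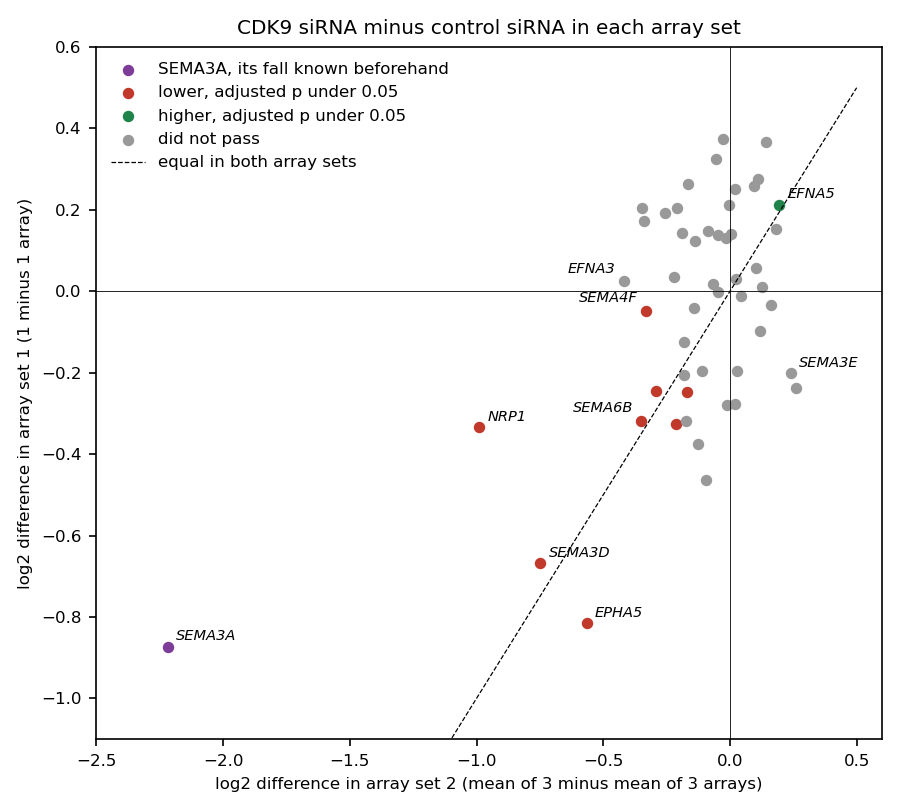
Log2 difference (CDK9 siRNA minus control siRNA) of each of the 51 genes in array set 2 (x axis, mean of 3 arrays per group) and array set 1 (y axis, 1 array per group), with a dashed line where both would be equal. SEMA3A lies at -2.22 and -0.87, above the line, and EPHA5 at -0.57 and -0.81, below it.

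In array set 2 alone, 11 of the 50 members other than SEMA3A were lower (22.0%) and 2 higher (4.0%) by the test, beside 8.57% and 9.52% of all genes. In 23 of these 50 members (46.0%) all 3 CDK9 siRNA arrays of set 2 lay below all 3 controls, which held for 19.5% of all genes. In 5 members (10.0%) they lay above, which held for 18.7% of all genes. When the pair of set 1 had to go the same way, 13 members (26%) were lower and 3 (6.0%) higher, beside 13.8% and 11.5% of all genes. Of the 23 members that lay lower in set 2, 10 were thus higher in set 1, among them all 3 ephrin-B ligands, EFNA2 and EFNA3. Over all genes, 3589 lay lower in set 2, and 2541 of those were also lower in set 1. The median of all members was 0.01 in set 1 and -0.09 in set 2. A limma interaction of group and array set passed for 0 of the 50 members other than SEMA3A and for 2.14% of all genes. In that fit 14 of the 50 had an unadjusted p under 0.05. The share of all genes at the unadjusted threshold was not counted, so the 2.14% is not its background. Set 1 has 1 array per group there, so its spread is assumed to be that of set 2.

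Genes that act with the semaphorin receptors moved both ways. Of 39 measured co-receptors and effectors, 5 rose (12.8%) and 4 fell (10.3%), beside 6.73% and 7.47% of all genes, with a median of -0.05. RND3 rose by 0.99 ± 0.06, with 10.1, 11.3, 11.4 and 11.3 in the CDK9 siRNA arrays, against 9.31, 10.2, 10.3 and 10.3 in the controls. DPYSL2 (CRMP2), a tubulin-binding protein phosphorylated after SEMA3A binding, rose by 0.41 ± 0.05 (adjusted p = 0.00113). Its relatives CRMP1 (-0.30, adjusted p = 0.00877) and DPYSL3 (-0.24, adjusted p = 0.0264) fell, while DPYSL4 (-0.15) and DPYSL5 (0.13) did not pass. FYN, a Src-family kinase that acts downstream of plexin receptors, fell by 0.37 ± 0.06 (adjusted p = 0.00453). Pairing the arrays by number left 2 of the 39 genes higher and 2 lower, beside 4.41% and 4.75% of all genes in that fit.

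Of 27 ephrin effectors and proteases, 5 fell (18.5%) and 0 rose, beside 7.47% and 6.73% of all genes, with a median of -0.05. At an unadjusted p under 0.05, 1 of the list was higher, and the share of all genes at that threshold was not counted. Pairing the arrays by number left 4 of the 27 lower, beside 4.75% of all genes in that fit. KALRN and VAV2, exchange factors used by Eph receptors, fell by 0.33 (adjusted p = 0.0154) and 0.30 (adjusted p = 0.0139). KALRN differed by -0.10 in set 1 and by -0.41 in set 2.

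Among 27 genes of other guidance families, 5 fell (18.5%) and 1 rose (3.70%), beside 7.47% and 6.73% of all genes, with a median of -0.08. SRGAP1, which binds Robo receptors, fell by 0.72 ± 0.05 (adjusted p = 0.000101), and the Robo ligand SLIT2 by 0.56 ± 0.13 (adjusted p = 0.0186). SLIT2 differed by -1.14 in set 1 and -0.36 in set 2. The netrin receptors UNC5B (-0.44) and NEO1 (-0.41) and the secreted netrin NTN4 (-0.36) fell, and NTNG1, a membrane-anchored netrin, rose by 0.41 (adjusted p up to 0.0146 for these 4 genes). Pairing the arrays by number left the counts of 5 lower and 1 higher the same, beside 4.75% and 4.41% of all genes in that fit.

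RefSeq promoter windows (GRCh38.p14, 250 bases before to 50 after the start) were matched for 45 of the 51 members, and not for SEMA3A, NRP1, SEMA6A, SEMA6B, EFNB3 and EPHA10. The windows below are those of the 2 matched members that fell by more than 0.3, SEMA3D and EPHA5, and of EFNA5, which rose. They are printed 5′ to 3′ on the gene's strand, with matches to 4 motifs in capitals, read on both strands: TATAAA (the TATA box), GGGCGG (the GC box), TGACTCA (the AP-1 site) and CACGTG (an E-box). SEMA3D lies on the minus strand at chr7:85187007-85187306, EPHA5 on the minus strand at chr4:65670440-65670739 and EFNA5 on the minus strand at chr5:107670888-107671187.
SEMA3D: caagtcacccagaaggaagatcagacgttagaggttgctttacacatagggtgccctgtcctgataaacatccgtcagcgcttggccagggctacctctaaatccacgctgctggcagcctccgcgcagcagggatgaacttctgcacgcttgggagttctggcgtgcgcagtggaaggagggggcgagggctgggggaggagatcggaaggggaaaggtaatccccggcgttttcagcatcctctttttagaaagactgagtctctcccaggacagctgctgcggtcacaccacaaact
EPHA5: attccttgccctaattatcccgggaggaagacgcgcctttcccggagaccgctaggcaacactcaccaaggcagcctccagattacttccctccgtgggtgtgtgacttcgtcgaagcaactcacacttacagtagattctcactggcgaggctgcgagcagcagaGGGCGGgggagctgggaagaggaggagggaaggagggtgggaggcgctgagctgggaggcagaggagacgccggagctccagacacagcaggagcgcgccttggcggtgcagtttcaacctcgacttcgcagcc
EFNA5: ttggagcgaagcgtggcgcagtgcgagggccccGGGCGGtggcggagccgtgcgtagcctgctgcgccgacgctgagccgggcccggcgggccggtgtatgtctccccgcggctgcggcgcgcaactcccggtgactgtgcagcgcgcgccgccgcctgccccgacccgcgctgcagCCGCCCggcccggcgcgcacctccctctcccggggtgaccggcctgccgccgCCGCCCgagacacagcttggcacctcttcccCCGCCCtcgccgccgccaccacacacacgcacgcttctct

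The SEMA3D window held 0 matches, that of EPHA5 1 GC box and that of EFNA5 4, and their GC contents were 57.0%, 61.7% and 78.0%. The GC box stood in 36 of 45 member windows (80.0%), beside 45.0% of all 35116 windows in the table. These windows reach beyond the 18417 genes tested, so window shares here have a different background from the gene shares above. The median GC content was 65.7% in the member windows and 58.7% in all windows. The TATA box stood in 1 member window, that of EFNB2 (2.22%, against 11.5% of all), and the AP-1 site in 0 (4.95% of all). The E-box stood in 4 (8.89%, against 7.26% of all), those of EPHA8, SEMA3E, SEMA4D and SEMA6D, none of which passed the test. A match describes these letters and not a bound site.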

How the data were processed

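The tools named by the submitters' processing notes are Affymetrix Expression Console 1.1, RMA and limma, with build hg19, in no stated role or order. The authors deposited 1 table of log2 expression values for 33297 probe sets on 8 arrays (range 2.01 to 14.7, 0 missing). The deposited log2 values were used without further normalization. Platform annotation gave 1 symbol for 19460 probe sets, and the probe set with the highest mean was kept per gene, which left 18417 genes. RefSeq (GRCh38.p14) was used for names, where it changed 0 symbols, and for promoter windows.

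The comparison was run in R 4.3.3 with limma 3.58.1 (lmFit, eBayes, two-sided, adjusted p under 0.05 over all genes), with the array set as a block. The numbering in the sample descriptions skips between replicate 1 of both groups and the rest. No source used here says what separates the 2 array sets. Arrays of different sets correlated at 0.975 to 0.981, less than those of 1 set (at least 0.992), and no array repeated another. The number of arrays limits the precision of the values. Same-numbered arrays deviated together from their group means (r = 0.822, 0.537, 0.494 and 0.607 for replicates 1 to 4), above the limit of 0.1 for pairs, so a fit with the number as a block was run as an alternative. Differently numbered arrays within set 2 correlated about as much (0.4055 to 0.5609), so the data do not single out the numbers beyond the array set.

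On simulated data for this comparison (18417 genes, 50 changed per size), the fit recovered 32%, 86%, 100% and 100% of 1.2-fold, 1.5-fold, 2-fold and 4-fold changes, and 8 of 167 genes called were unchanged ones. The simulated noise was independent between genes, and far fewer genes changed than the 2615 called in the data. The adjusted threshold was thus stricter there, and these rates need not hold for the data. Tables and plots used Python 3.11.15, pandas 2.3.3, numpy 2.4.6, scipy 1.17.1 and matplotlib 3.10.9.

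The members and the lists of partner genes and markers were chosen with earlier results of these data known. Values on every array are given for SEMA3A, for each member that passed with a difference of at least 0.3 in size and, in families without one, for the member with the smallest p. Array values of other members were added after their values were seen. Of the partner lists, members that passed with at least 0.3 in size are named, and the relatives of DPYSL2 whatever their size. Alternatives were no block, the replicate number as a block, array set 2 alone, each array left out, median centring, renewed quantile normalization, dim genes left out, the mean of a gene's probe sets, and eBayes with trend and robust options. Leaving out either array of set 1 gave the same result as array set 2 alone, so these are not separate checks.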

Additional observations from a re-analysis of the deposited data

How the results depend on the processing

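SEMA3A, counted among the members here, stayed between -2.22 and -1.73 when any 1 array was left out, and neither it nor any of the 9 members that passed changed sign under the alternatives run. In the unblocked fit 0 members and 0 of all genes passed in limma in either direction, because the offset between array sets entered the residual. At an unadjusted p under 0.05 that fit had 28 genes higher and 23 lower. The replicate block gave 0 members higher and 7 lower, and 813 and 875 of all genes, and it changed no call of a named member other than EFNA1, EFNA5 and SEMA4F. In array set 2 alone 2 members were higher and 12 lower, beside 9.52% and 8.57% of all genes. With dim genes left out 2 members were higher, SEMA3D then not being tested. Leaving out 1 array gave 0 to 2 members higher, 6 to 12 lower, and 714 to 1753 and 806 to 1578 of all genes. Counts of all genes moved by over 1.5 times without CDK9 siRNA replicate 3 (771 higher, 883 lower), control replicate 2 (796 higher), 3 (714 and 806) or 4 (814 and 871). With arrays centred on their medians or quantile normalized again EFNA1 was lost (adjusted p = 0.0702 and 0.0527), and EPHB4 passed with dim genes left out (0.0274) and with trend and robust eBayes (0.0315). EPHB4 did not pass with median centring (0.103), renewed quantile normalization (0.0808), array set 2 alone (0.0792) or the replicate block (0.0877). NRP1, SEMA3D, EPHA5, SEMA6B and PLXNA3 passed under every alternative that tested them except the fit without a block. Of the members that passed, SEMA3D was dim, and the files hold no detection call.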

Other observations

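The control signal of some members differed between the array sets by more than that of most genes. Less each array's median, SEMA3A read -0.92 in CDK9 siRNA replicate 1 and -0.36 to 0.07 in CDK9 siRNA replicates 2 to 4, against 0.00 in control replicate 1 and 1.99 to 2.15 in control replicates 2 to 4. The gap between control arrays of set 2 and set 1 was 2.09, and 18 of 18417 genes had a larger one. For NRP1 the gap was 1.2, with 125 genes above it, and for EFNB3 it was 1.1, with 161 above. EPHA3 lay at the other end, at -1.11 with 166 genes below, while for SEMA3D it was 0.36 and for EPHA5 0.09. Over all genes the lower and upper quartiles of the gaps were -0.41 and 0.09. In the CDK9 siRNA arrays the gaps of SEMA3A and NRP1 were 0.81 and 0.61. What the array sets differ in was not tested.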
